A study of Mus musculus with 12 samples.

Results

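The 9 myelin genes Mbp, Mobp, Mog, Mag, Mal, Cnp, Opalin, Myrf and Bcas1 were taken by symbol from the 55335 mouse genes counted in nuclei of the cortex, and each symbol matched 1 gene. They were described across the stages of the oligodendrocyte lineage, in the other classes of nuclei, and in MYT1L Het against WT mice. The mice were 21 days old and came from a C57BL/6 line carrying the frameshift MYT1L S710fsX on 1 allele in Het and on none in WT, with 3 males and 3 females of each genotype, each animal giving 1 sample, drawn from 4 litters that the labels do not tie to animals. All animals of both genotypes had received AAV9 with the Calling Cards constructs hyPB and H2b-tdT-SRT in the ventricles as newborns and were perfused with DPBS before dissection. Nuclei were cleaned on an iodixanol gradient that also removed free myelin, and all animals of this age were barcoded on the same plates with the ScaleBio combinatorial kit, from the template left after a portion was set aside for another assay. The allele is germline, so oligodendrocytes and neurons both carry it.

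Oligodendrocytes wrap axons in myelin, a stack of membrane that is compacted by basic proteins such as MBP and held to the axon by adhesion proteins such as MAG. Their precursors, the OPCs, divide and then pass through a short newly formed (premyelinating) stage before myelin is made. The transcription factor MYRF is required for that last step and binds near many myelin genes. The assay reads nuclei, so its counts are meant to follow RNA in the nucleus. Mbp and Mobp messages carried out to the myelin sheath lie outside it, apart from any that cling to nuclei, which was not tested.

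The matrices held 78743 barcodes, none shared between animals, and 37298 nuclei remained after filtering and removal of likely doublets. Between 1834 and 4731 nuclei per animal were kept, with median totals of 3167 to 3590 unique transcript counts (UMIs) per nucleus. The lineage gave 483 OPCs, 536 newly formed and 1389 mature oligodendrocytes, named from marker lists that left out the 9 genes, which were also kept out of the clustering. The mature list, one of those that gave the names, summed to 23582 CPM (counts scaled to the same library total) in mature nuclei. It summed to 6863 CPM in newly formed nuclei, 434 CPM in excitatory neurons and 7856 CPM in microglia-named nuclei, above its sum in newly formed nuclei. In newly formed nuclei the OPC list summed to 16134 CPM and the newly formed list to 15702 CPM. In OPCs these lists summed to 32527 and 1844 CPM. The other classes were 24309 excitatory and 9482 inhibitory neurons, 175 fibroblast or barrier, 165 astrocyte, 139 microglia, 62 ependymal or choroid and 13 endothelial nuclei, and 545 nuclei met no name. The lineage was thin in WT male 1 (52 nuclei) and WT female 3 (79 nuclei, of which 9 were OPCs), against 145 to 346 in the other 10 animals. Mature oligodendrocytes numbered 28 to 195 per animal. Levels of a class are CPM of counts summed over its nuclei in 1 animal, given for animals with at least 10 nuclei. For the finer clusters of the lineage, a level without an SD is CPM of counts pooled over all animals. The sums of the marker lists are pooled in the same way. The CPM of a gene is compared only with its own, and genes are set beside each other by ratios, spreads and counts per Mbp count. Stages and classes are clusters of the same nuclei, so differences between them are described without a test.

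Mbp, which encodes the myelin basic protein that seals the compact layers (chromosome 18, 82475146 to 82585637, GRCm38), stood at 7527 ± 325 CPM (SD, n = 12 animals) in mature oligodendrocytes. The lowest animal had 7103 CPM and the highest 7960 CPM, the tightest relative spread of the 9 genes. In newly formed oligodendrocytes Mbp was at 4057 ± 553 CPM (n = 12), with animals between 3263 and 4810 CPM, so that the stages did not overlap. In OPCs it was at 53.1 ± 28.7 CPM (n = 11), from 22.3 to 113 CPM.

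Mobp, which encodes a small basic protein of compact myelin (chromosome 9, 120149707 to 120181484), was at 5579 ± 731 CPM in mature and 1055 ± 496 CPM in newly formed nuclei (n = 12 each). The newly formed values spread from 98.1 CPM in WT male 1, which had 14 such nuclei, to 1913 CPM. In every animal the mature level was at least 2.93 times the newly formed level. OPCs held 4.5 Mobp counts in all, and 9 of 11 animals had none. Mal, a raft protein of compact myelin (chromosome 2, 127633226 to 127656695), had the lowest ratio of newly formed to mature level of the 9. It was at 619 ± 157 CPM in mature nuclei, from 270.5 to 879 CPM, and at 5.06 ± 5.74 CPM in newly formed nuclei, where 6 of 12 animals had no Mal count.

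The surface and cytoplasmic proteins of myelin followed different courses. Mag, the adhesion protein of the inner wrap facing the axon (chromosome 7, 30899176 to 30914873), was already at 670.0 ± 173 CPM in newly formed nuclei and at 1026 ± 146 CPM in mature nuclei, a 1.53-fold higher mean, higher in 11 of 12 animals. Mog, a glycoprotein of the outermost surface of the sheath (chromosome 17, 37010743 to 37023398), went from 193 ± 109 to 1724 ± 271 CPM, and its mature mean was 8.94 times the newly formed mean. Opalin, a sialylated membrane protein of oligodendrocytes (chromosome 19, 41061710 to 41077113), went from 23.3 ± 18.9 to 607 ± 93.7 CPM, a ratio of 26.1. Cnp, the phosphodiesterase of the uncompacted cytoplasmic channels (chromosome 11, 100574904 to 100591729), stood at 99.5 ± 41.3 CPM in newly formed and 219.5 ± 36.2 CPM in mature nuclei, and the ranges of the stages overlapped although the mature value was the higher in 12 of 12 animals. The late genes thus separated into Mag, Mbp and Cnp, at 49.6% to 63.8% of the mature level in newly formed nuclei (counts pooled over animals), and Mobp, Mog, Opalin and Mal, at 18.8%, 10.2%, 3.86% and 0.931%.

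The remaining members did not peak in mature nuclei alone. Myrf (chromosome 19, 10208272 to 10240748) was at 143 ± 44.8 CPM in newly formed and 130.5 ± 23.7 CPM in mature nuclei, higher in the newly formed stage in 7 animals and in the mature stage in 5, so the stages did not differ beyond the spread between animals. In OPCs it was at 16.1 ± 12.2 CPM. Bcas1, a basic protein that marks oligodendrocytes as they begin to myelinate (chromosome 2, 170346991 to 170427845), reached 3867 ± 292 CPM in newly formed nuclei, from 3188 to 4211 CPM. It was at 610 ± 169 CPM in OPCs (n = 11) and 653 ± 107 CPM in mature nuclei, ranges that overlapped each other and lay far below every newly formed value. Bcas1 was 5.92 times higher in newly formed than in mature nuclei on average and at least 4.58 times higher in each animal. It was the only member whose level over the whole newly formed stage was clearly above its mature level.

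**Figure D1:**
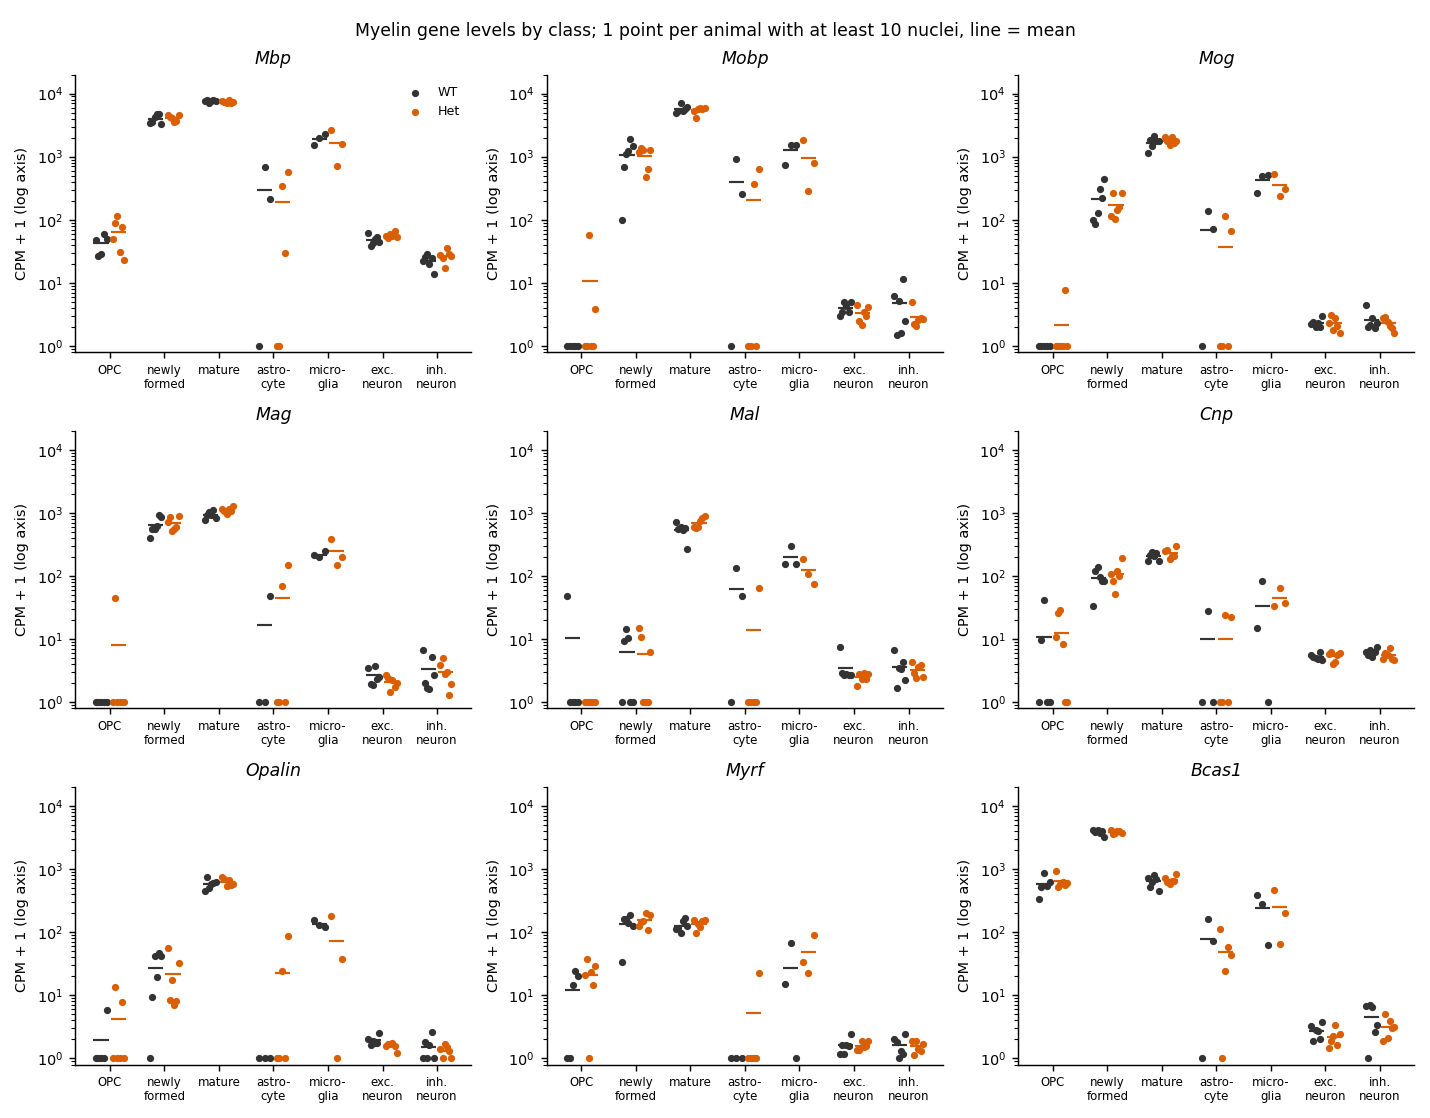
Level of each of the 9 genes (CPM + 1, log axis) in 7 classes of nuclei, 1 point per animal with at least 10 nuclei, WT in black and Het in orange, lines at the means. Mal and Opalin are highest in mature oligodendrocytes, Bcas1 is highest in newly formed nuclei, and WT and Het points overlap in the lineage stages.

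The share of nuclei with at least 1 count, after every nucleus had been thinned to 1500 UMIs, kept the order of the stages, apart from Mal in OPCs and newly formed nuclei, where it was near 0 in both, and the ratio of newly formed to mature nuclei was nearer 1 than in CPM for each gene but Mag. Mbp was seen in 4.60% ± 3.05 of OPCs, 87.4% ± 6.20 of newly formed and 100% of mature nuclei (n = 11, 12 and 12 animals). Bcas1 was seen in 53.4% ± 10.99 of OPCs, 92.0% ± 3.27 of newly formed and 57.1% ± 9.69 of mature nuclei. Mal was seen in 0.841% ± 1.30 of newly formed and 55.9% ± 9.46 of mature nuclei, and Opalin in 2.78% ± 2.66 and 51.3% ± 7.15. Without thinning, Mal was seen in 1.49% of newly formed and 72.2% of mature nuclei. No nucleus fell below 1500 UMIs, so none was left out.

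Finer clusters showed that the stages are not uniform for these genes. Among newly formed nuclei, the 247 of cluster 4 were led by Enpp6, Sox6, Neu4 and Vcan, and Sox6 and Vcan are on the OPC marker list. Cluster 4 had 1761 CPM of Mbp and 5265 CPM of Bcas1 with 1.66 CPM of Mobp and no Opalin count. The 111 nuclei of cluster 12, led by Enpp6 and 9630013A20Rik, had 4069 CPM of Mbp and 4990 CPM of Bcas1, and 37.1 CPM of Mobp. The 178 nuclei of cluster 6, led by 9630013A20Rik and St18, had 7162 CPM of Mbp, 2971 CPM of Mobp and 1435 CPM of Mag, with Bcas1 at 1587 CPM. In that cluster Mbp lay within the range of the mature clusters and Mag above all of them but cluster 3, while Mal (8.23 CPM) was below every mature cluster. Opalin (63.7 CPM) was below clusters 3, 1 and 0. It did not separate from cluster 11 (lower in cluster 11 in 5 of the 7 animals with both). Myrf was higher in cluster 6 than in cluster 0 in all 9 animals with both (204 ± 68.0 against 133 ± 20.5 CPM). It was higher than in clusters 3 and 1 in 7 of 9 animals each, and than in cluster 11 in 5 of 7. Bcas1 was lower in cluster 6 than in cluster 4 in each of the 9 animals with at least 10 nuclei in both (1608 ± 346 against 5358 ± 612 CPM), and Mbp, Mobp, Mog and Mag were each higher in cluster 6 in those 9.

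Mature nuclei formed 4 clusters that had similar levels of Mog, Cnp and Myrf and differed in Mag, Mal, Opalin, Bcas1, Mbp and Mobp. Ordered by the mean level of mature markers other than the 9 genes, they were cluster 3 (254 nuclei), cluster 1 (467), cluster 0 (529) and cluster 11 (139, led by 4930420G21Rik, with Hapln2, Anln and Aspa among its leading genes). Mal was at 208 CPM in cluster 3 and 842 CPM in cluster 0. In the 11 animals with both clusters it was higher in cluster 0 in all 11 (786 ± 225 against 207 ± 47.0 CPM). Mag went the other way between these clusters, at 1621 CPM in cluster 3 and 876 CPM in cluster 0, and was lower in cluster 0 in all 11 animals. Neither continued into cluster 11, where Mal was lower than in cluster 0 in 7 of 8 animals (717 ± 244.5 against 864 ± 195 CPM) and Mag was higher in 7 of 8 (977 ± 214 against 883 ± 110.0 CPM). Opalin was at 861, 790.2, 476 and 71.7 CPM in the 4 clusters in that order, and was lower in cluster 11 than in cluster 3 in all 8 animals with both (71.1 ± 55.1 against 860.5 ± 188 CPM). Bcas1 was at 491 and 489 CPM in the first pair and at 867 and 984 CPM in the second, so the gene that was highest in newly formed nuclei was not lowest in the clusters with the most mature markers. Mbp was at 8322, 8000, 6951 and 6396 CPM, and was lower in cluster 0 than in cluster 3 in all 11 animals. Mobp was at 6244, 5952, 5211 and 4957 CPM, and was lower in cluster 0 than in cluster 3 in 10 of 11 animals.

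**Figure D2:**
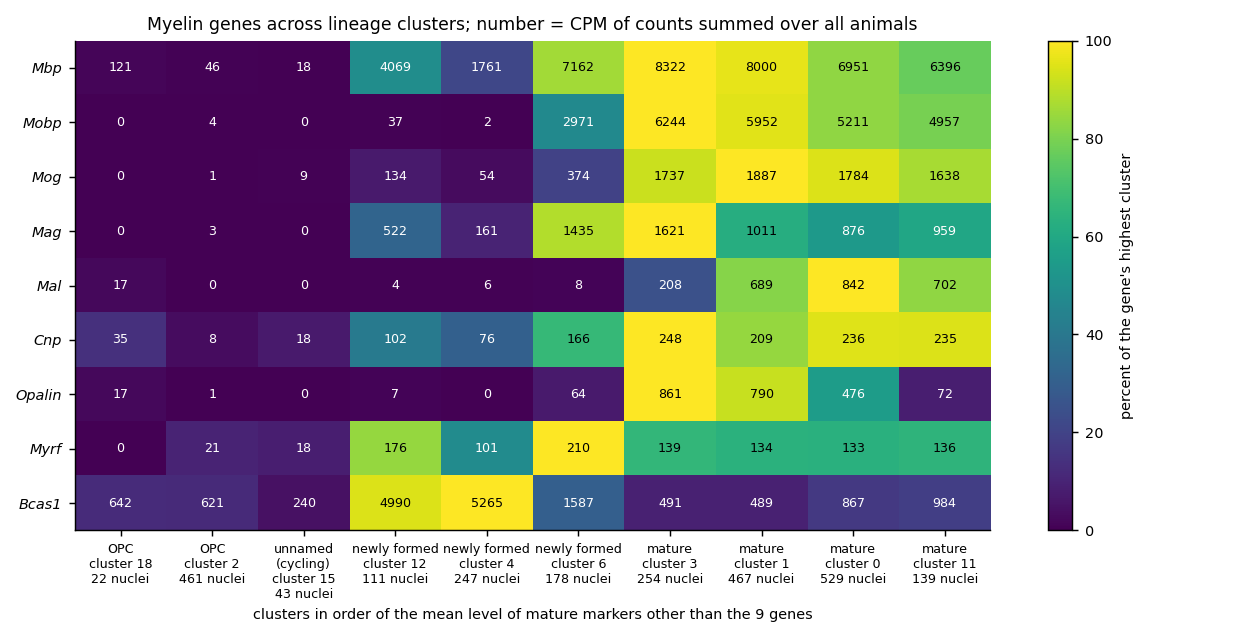
Level of the 9 genes (CPM of counts summed over animals, printed in each cell) in the clusters of the lineage and in 43 cycling nuclei with OPC markers that met no name, ordered by the mean level of mature markers other than the 9 genes. Colour is the percent of the highest cluster of each gene, which falls in the newly formed clusters for Bcas1 and Myrf and in the mature clusters for the others.

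RefSeq promoter windows (GRCm38.p6, 250 bases before to 50 after the start) were listed for 6 of the 9 genes, namely Mobp, Mog, Mag, Mal, Cnp and Opalin. CTGGCAC or CTGGTAC, the letters bound by MYRF, were searched on both strands, and 4 of the 6 genes (Mag, Cnp, Mog and Opalin) held one of them, against 7.1% of all 32851 windows, or 8.1% of the 27025 genes. The stretches are shown because these 4 genes share that match while Mal and Mobp, the other late genes listed, do not hold it in this window. The capitals mark the match, read on the strand of the gene.
Mag (chr7:30914923-30914977, minus strand, ending at a RefSeq start): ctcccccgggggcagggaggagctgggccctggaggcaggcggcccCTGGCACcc
Cnp (chr11:100574812-100574911, plus strand): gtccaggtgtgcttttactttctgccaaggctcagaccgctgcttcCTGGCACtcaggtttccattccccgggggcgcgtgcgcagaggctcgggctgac
Mog (chr17:37023428-37023527, minus strand): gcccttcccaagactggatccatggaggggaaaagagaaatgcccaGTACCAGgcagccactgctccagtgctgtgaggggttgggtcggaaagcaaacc
Opalin (chr19:41077064-41077088, minus strand, after the start): aaagacctgcaGTGCCAGtgagaga
In Cnp the match began 81 bases before the start and in Mog 83 bases before it, on the opposite strand in Mog and Opalin. Mag has 3 listed starts, and the same match lay 68 bases before one and 9 before another. AAGTT, the core of the MYT1 family, was found in Mobp, Mag, Mal, Cnp and Opalin but also in 39.3% of all windows. ACAAAG, a SOX core, was found in Mobp, Mag, Cnp and Opalin and in 18.7% of all windows, and ACAATG in none of the 6 and 12.6% of all. None of these runs of letters contains another. A match is a run of letters and not a measured binding site.

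Over 83 sums of a class in an animal, the genes most like the mean log2(CPM + 5) of the 9 included Gm38642 (Pearson r = 0.963), Cldn14 (0.960), St18 (0.955) and Tspan2 (0.953), among 11503 genes above 20 CPM in some class. The points share animals and depth, and the values are a description. For single members the most alike genes were St18 for Mbp, Gm38642 for Mobp (0.961) and Mog (0.964), Cldn14 for Mag (0.980), Sec14l5 for Mal (0.903), Elovl7 for Cnp (0.890), Galnt6 for Opalin (0.933), Rinl for Myrf (0.918) and Plxnb3 for Bcas1 (0.948). Mal (0.750) and Bcas1 (0.766) were the members least like the mean of the 9.

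Outside the lineage the 9 genes appeared in several classes. Microglia-named nuclei had 1784 ± 677 CPM of Mbp and 1113 ± 599 CPM of Mobp (n = 6 animals). Of these 139 nuclei, 75 had no count of any of the 9 genes and 17 (12.2%) had a summed level at or above the 10th percentile of mature oligodendrocytes (13140 CPM). Per 100 Mbp counts they had 67.6 Mobp, 10.2 Mal and 6.34 Opalin counts, near the 75.0, 8.65 and 8.27 of mature oligodendrocytes. Bcas1 was farther off, at 15.05 against 8.93 counts per 100 Mbp counts. The mature marker list summed to 7856 CPM in microglia-named nuclei, with 18 of its 24 genes at 20 CPM or more, against 8571 CPM for the microglial list. In astrocytes Mbp ranged from 0 to 673 CPM over 8 animals, 142 of 165 nuclei (86.1%) had none of the 9 genes, and 3 reached the same limit. The part of doublets or of loose RNA in these counts was not tested.

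Neurons differed from that pattern in Mobp, Mog, Mag, Opalin and Cnp, and excitatory neurons also in Mal and Bcas1. Per 100 Mbp counts, excitatory neurons had 2.64 and inhibitory neurons 5.58 Mog counts, against 23.9 in mature oligodendrocytes. Cnp went the other way, at 8.47 and 20.3 against 3.04. Excitatory neurons had 51.5 ± 7.73 CPM of Mbp (n = 12), from 38.1 to 64.4 CPM, and inhibitory neurons 23.6 ± 5.71 CPM, from 13.1 to 34.2 CPM. Mbp was higher in excitatory than in inhibitory neurons in 12 of 12 animals, with a ratio of means of 2.18. Mobp was at 2.66 ± 0.924 and 2.81 ± 2.83 CPM, and excitatory neurons had 5.19 and inhibitory neurons 10.4 Mobp counts per 100 Mbp counts, where mature oligodendrocytes had 75.0. The Mbp locus also encodes the Golli transcripts from an upstream start, which are known in neurons, and counts per gene do not separate them from the myelin forms. Cnp was at 4.32 ± 0.730 CPM in excitatory and 4.89 ± 0.934 CPM in inhibitory neurons, 1.89% and 2.15% of its mature level with counts pooled over animals, against 0.678% and 0.322% for Mbp. The other members were under 3 CPM on average in both.

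Before thinning, 15.2% of excitatory, 7.30% of inhibitory and 1.71% of fibroblast or barrier nuclei (3 nuclei, 95% Wilson interval 0.585% to 4.92%) had an Mbp count, at median totals of 3490, 3362 and 2366 UMIs. After thinning to 1500 UMIs the shares were 7.36% ± 1.09, 3.26% ± 0.913 and 1.25% ± 2.25 (n = 12, 12 and 7 animals). Among neuronal clusters Mbp was highest, at 88.0 ± 19.1 CPM (n = 12), in cluster 3, an excitatory cluster of 2047 nuclei with Slc26a4 among its leading genes, followed by 80.2 ± 20.9 CPM (n = 6) in cluster 29, led by Reln and Igf1, and 78.2 ± 18.8 CPM (n = 12) in cluster 14. The lowest were inhibitory cluster 19, led by Nxph1 and Gad2, at 8.76 ± 5.48 CPM and cluster 13, with Adarb2 and Vip, at 8.99 ± 5.99 CPM. The lowest animal of cluster 3 (58.8 CPM) lay above the highest animal of either (23.0 and 22.6 CPM). Mobp did not follow this order and was highest, with an SD larger than its mean, in inhibitory cluster 10 (11.04 ± 14.9 CPM).

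**Figure D3:**
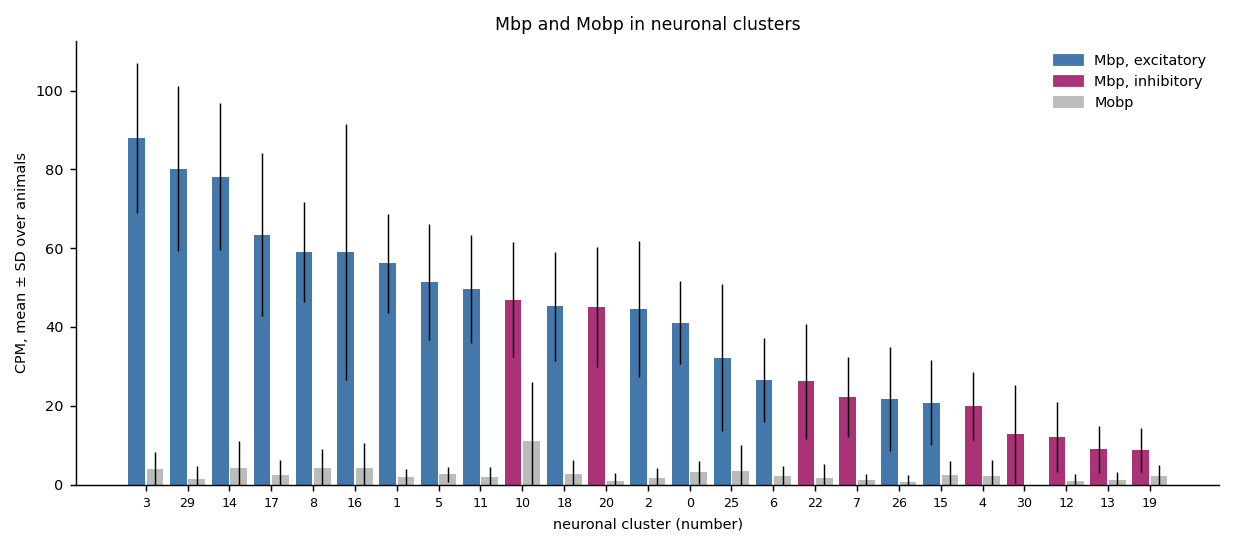
Mbp (blue, excitatory; purple, inhibitory) and Mobp (grey) in neuronal clusters, as mean CPM with SD over the animals with at least 10 nuclei in the cluster. Clusters are placed in order of falling Mbp mean, from 88.0 to 8.76 CPM, and the Mobp mean stays at or below 11.04 CPM in every cluster.

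Het and WT were then compared within each class with edgeR's quasi-likelihood test on summed counts. Calls needed a log2 fold change beyond 0.2 in size together with a p under 0.05 after Benjamini-Hochberg adjustment. Fold changes were fitted on rounded sums, and the levels beside them are CPM of the sums as deposited. Myt1l, the mutated gene, was not lower in Het: over all nuclei it stood at 896 ± 54.8 CPM in WT and 997 ± 36.7 CPM in Het (n = 6 each, log2 fold change 0.13 ± 0.05 SE, edgeR adjusted p = 0.624), so the counts do not check the genotype labels. In OPCs, the lineage stage with the most Myt1l, it was at 224 ± 48.4 CPM in WT (n = 5) and 220.0 ± 55.6 CPM in Het (n = 6).

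In mature oligodendrocytes none of the 9 genes was called, against a background of 0 of 4306 genes (0%). Unadjusted, 200 genes had p under 0.05, of which 1 was a member, and DESeq2 also called 0 (0% of 23287), with 214 unadjusted, of which 2 were members (Mal and Mag). The log2 fold changes of the 9 ran from -0.10 to 0.38, 7 were above 0, and their median was 0.07 beside 0.00 for all genes tested. Mbp was at 7113 to 7933 CPM in WT (median 7713) and 7103 to 7960 CPM in Het (median 7325), with almost the same range. The low end in WT was WT male 3 alone, and the next WT animal was at 7635 CPM. The log2 fold change of Mbp was -0.07 ± 0.07. The 95% interval of -0.22 to 0.08 corresponds to a Het level of 0.858 to 1.05 times that of WT. Mobp had -0.10 ± 0.10 (interval -0.30 to 0.10), Mog 0.06 ± 0.11 (-0.16 to 0.29), Opalin 0.07 ± 0.12 (-0.17 to 0.30) and Cnp 0.13 ± 0.14 (-0.15 to 0.40). Myrf had 0.07 ± 0.16 (-0.26 to 0.41) and Bcas1 0.06 ± 0.12 (-0.19 to 0.31).

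Mal had the largest difference of the 9, and it did not pass the test. WT animals had 270.5 to 708 CPM (median 565) and Het animals 578 to 879 CPM (median 672), so the groups overlapped, with WT female 3, from 57 nuclei, lowest at 270.5 CPM. The log2 fold change from edgeR was 0.38 ± 0.15 (interval 0.08 to 0.68, unadjusted p = 0.0153, edgeR adjusted p = 1). Mag was next, at 939 ± 133 CPM in WT and 1112 ± 104 CPM in Het (log2 0.20 ± 0.10, interval -0.01 to 0.41, edgeR adjusted p = 1).

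**Figure D4:**
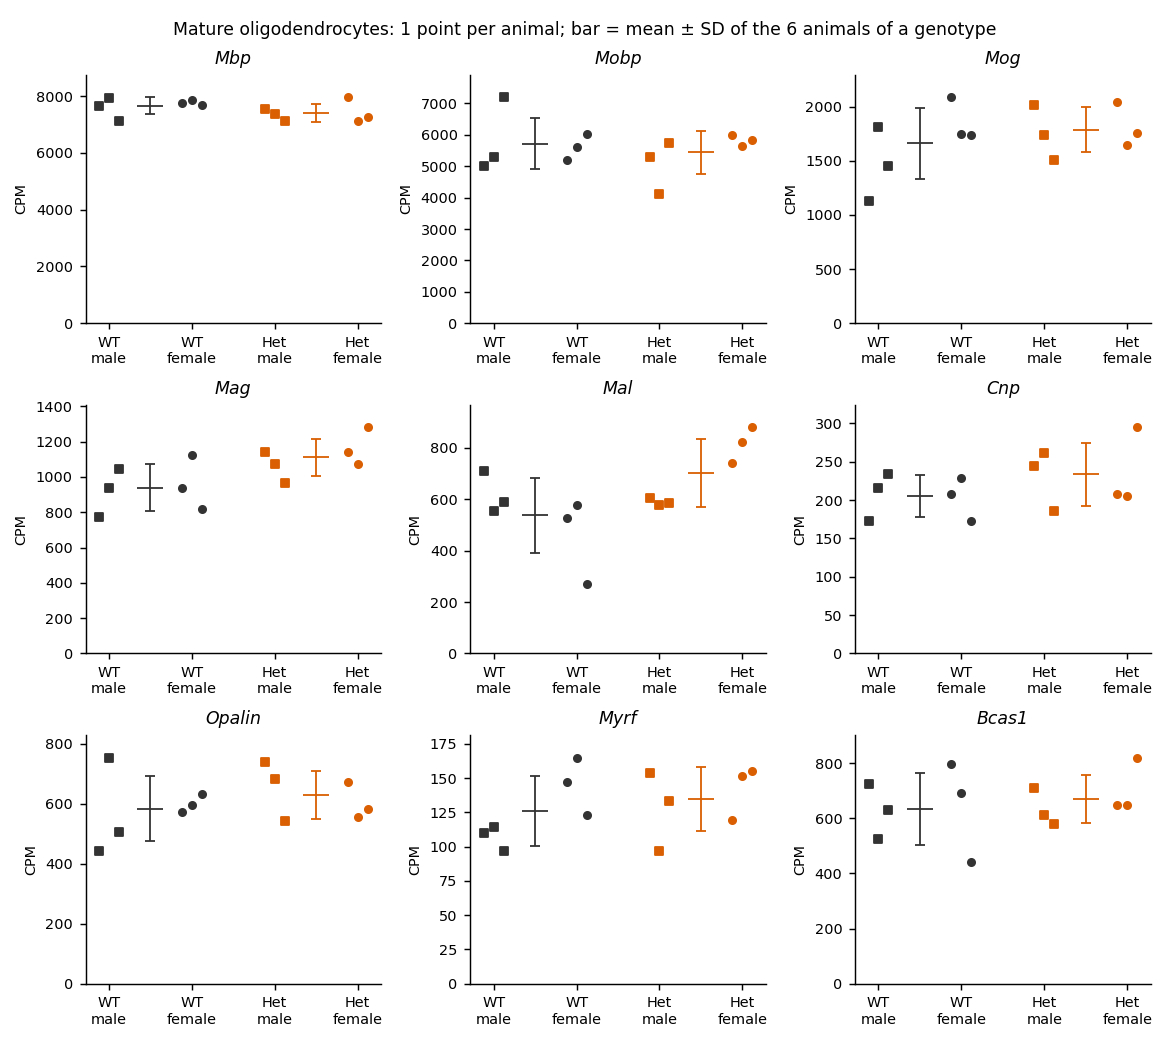
Level (CPM) of the 9 genes in mature oligodendrocytes of each animal by genotype and sex (squares, males; circles, females), with the mean and SD of the 6 WT and 6 Het animals. The genotypes overlap for every gene, and for Mal the 3 Het females lie highest, at 739 to 879 CPM, and WT female 3 lowest, at 270.5 CPM.

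Other genes of myelination gave no call in mature nuclei either. Of 29 other myelin genes 26 were tested and none was called (2 had an unadjusted p under 0.05, both higher in Het, among them Cldn11, the claudin of myelin tight junctions, at log2 0.26 ± 0.12). Of 23 transcription factors of the lineage 13 were tested, of 19 cholesterol synthesis genes 15 and of 18 receptors and signals 8, with no call and no unadjusted p under 0.05. Their smallest p belonged to Tcf7l2 (0.51 ± 0.25) and Sox8 (0.47 ± 0.26), factors of differentiating oligodendrocytes, to Sqle (0.36 ± 0.25) and Fdft1 (0.20 ± 0.16), enzymes of sterol synthesis, and to the receptors Gpr37 (0.27 ± 0.15) and Lpar1 (0.12 ± 0.12), all log2 fold changes with SE. The list medians were 0.07, 0.04, 0.02 and 0.01.

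In newly formed oligodendrocytes 7 of the 9 genes had enough counts to be tested, all but Mal and Opalin, and none was called, against 0 of 2178 genes (0%) by edgeR and 0% by DESeq2, with 76 and 132 genes at an unadjusted p under 0.05 and no member among either. Bcas1 was at 3875 ± 376 CPM in WT and 3859 ± 216 CPM in Het (log2 -0.03 ± 0.11, interval -0.26 to 0.20), and Mbp at 4016 ± 687 and 4098 ± 442 CPM (-0.01 ± 0.13, interval -0.26 to 0.25). Mobp was much less certain, at 1078 ± 631 and 1031 ± 374 CPM (-0.14 ± 0.43, interval -1.09 to 0.81). Mog had -0.10 ± 0.34, Mag 0.09 ± 0.18, Cnp 0.16 ± 0.29 and Myrf 0.02 ± 0.23. In OPCs only Bcas1 was tested, at 576 ± 196 CPM in 5 WT and 638 ± 155 CPM in 6 Het animals (log2 0.06 ± 0.16, interval -0.25 to 0.37), with 0 of 1904 genes called (0%; 97 at an unadjusted p under 0.05, 0 called and 221 unadjusted by DESeq2). Over the lineage as a whole 0 of 6098 genes were called (0%), with 230 unadjusted and 0 called by DESeq2, and 0 of the 9 members called.

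In neurons the background was higher, and no member was called among the few tested, which is near the share over all genes. In excitatory neurons edgeR called 33 of 14747 genes (0.224%) and DESeq2 93 of 9704 (0.958%). Of the 9 genes, 4 were tested by edgeR and 1 by DESeq2. Unadjusted, 1230 genes (8.34%) had an edgeR p under 0.05, 2 of them members. Mbp was at 38.1 to 59.7 CPM in WT (median 46.4) and 49.6 to 64.4 CPM in Het (median 54.4), with a log2 fold change of 0.21 ± 0.10 (interval 0.00 to 0.42, unadjusted p = 0.0456, edgeR adjusted p = 0.579). Mobp had the opposite sign, at 3.04 ± 0.847 CPM in WT and 2.28 ± 0.904 CPM in Het (log2 -0.55 ± 0.24, unadjusted p = 0.0335, edgeR adjusted p = 0.531). Mal had -0.67 ± 0.35, and WT male 1, at 6.39 CPM, was far above the other 11 animals, which were between 0.816 and 1.94 CPM. Cnp had 0.05 ± 0.16. In inhibitory neurons 41 of 11870 genes were called by edgeR (0.345%) and 89 of 9352 by DESeq2 (0.952%). There edgeR tested 2 members and DESeq2 1. By edgeR Mbp had 0.24 ± 0.17 and Cnp -0.21 ± 0.21, neither called. Astrocytes (8 animals) and microglia-named nuclei (6 animals) gave 0 calls of 869 and of 1440 genes by edgeR (0% each, with 38 and 55 unadjusted) and 0 by DESeq2.

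Over all nuclei together the spread between animals was far larger than within mature oligodendrocytes. Mbp ranged from 123 to 531 CPM in WT and from 193 to 519 CPM in Het, with SDs of 164 and 118 CPM around means of 301 and 339 CPM. All 9 log2 fold changes were above 0, with a median of 0.23 beside 0.00 for all genes, and Mbp had 0.16 with an interval of -0.71 to 1.03. None was called, against 2 of 17173 genes (0.0116%) by edgeR and 54 of 14211 (0.38%) by DESeq2. A level over all nuclei counts both how many oligodendrocytes were among the nuclei kept and how much each expressed. The animals with the lowest Mbp over all nuclei, WT female 3 (123 CPM) and WT male 1 (126.5 CPM), had the lowest shares of mature oligodendrocytes, 1.61% and 1.24% of their nuclei, and their Mbp within mature oligodendrocytes (7689 and 7635 CPM) was inside the range of the other animals.

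Mature oligodendrocytes made up 3.47% ± 1.95 of the nuclei kept in WT and 4.30% ± 1.496 in Het (n = 6 each). The difference was 0.823 percentage points (exact two-sided permutation test over all relabellings of the animals, p = 0.416, adjusted p = 0.446). WT animals ran from 1.24% to 6.33% and Het animals from 2.26% to 6.44%. The part of the barcodes kept differed between animals, for example 2252 of 4059 in WT male 1 and 2377 of 6478 in Het male 1. With neither the upper limits nor the ratio filter, 1088 of 74784 nuclei were named mature and 55473 excitatory. With them the counts were 1389 of 37298 and 24309. Newly formed oligodendrocytes were at 1.33% ± 0.709 and 1.60% ± 0.458 (exact permutation p = 0.446), OPCs at 1.12% ± 0.705 and 1.55% ± 0.537 (exact permutation p = 0.266), and the whole lineage at 5.93% ± 3.32 and 7.45% ± 2.33 (exact permutation p = 0.368), each with an adjusted p of 0.446. The differences were smaller than the spread between animals of 1 genotype.

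**Figure D5:**
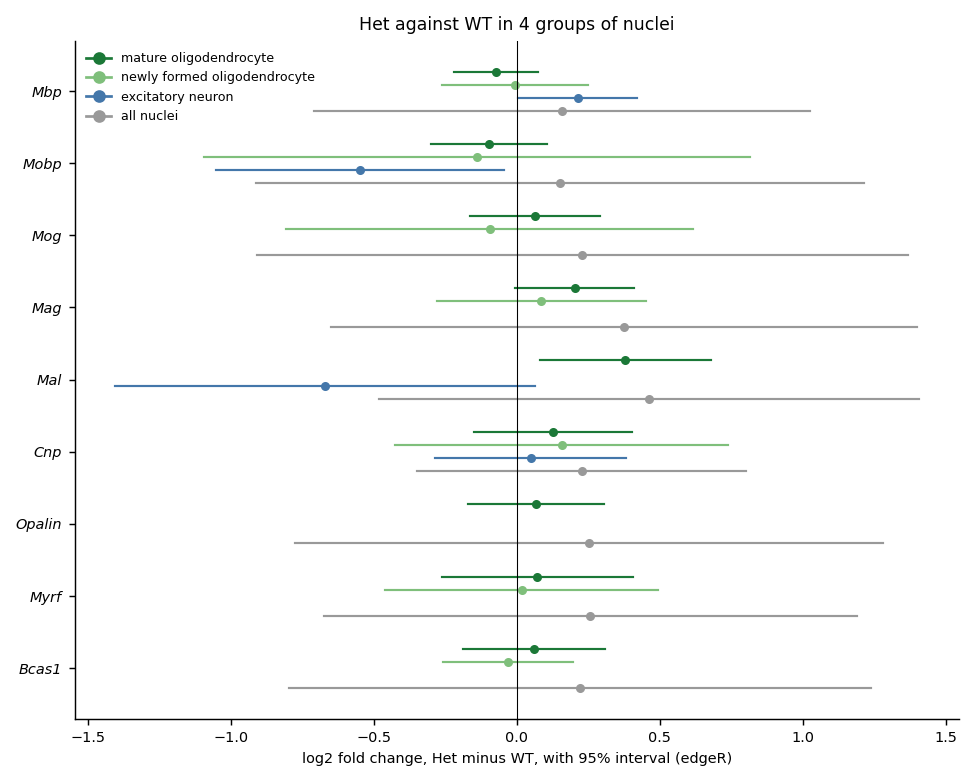
Log2 fold change (Het minus WT, edgeR) with its 95% interval for each of the 9 genes in mature and newly formed oligodendrocytes, excitatory neurons and all nuclei, where tested. In mature oligodendrocytes the interval of Mbp spans -0.22 to 0.08, and over all nuclei it spans -0.71 to 1.03.

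The sexes were compared by the sex by genotype term. In mature oligodendrocytes no gene passed (0 of 4306, edgeR, with 203 at an unadjusted p under 0.05). Mal had the smallest p of the 9: the log2 fold change was -0.04 in males and 0.73 in females, and the term was 0.77 ± 0.25 (unadjusted p = 0.00394, edgeR adjusted p = 0.885). In newly formed nuclei 9 of 2178 genes passed and none was a member, and 195 genes had an unadjusted p under 0.05. Mobp (-1.76 ± 0.69), Mog (-1.24 ± 0.50) and Mag (-0.67 ± 0.33) each had a log2 fold change above 0 in males and below 0 in females. The values were 0.80 and -0.96 for Mobp, 0.62 and -0.60 for Mog, and 0.44 and -0.21 for Mag. Their terms had unadjusted p of 0.0312, 0.0181 and 0.0496 and edgeR adjusted p of 0.473, 0.374 and 0.558. The term of Cnp had the opposite sign (log2 fold change -0.44 in males and 0.66 in females, edgeR unadjusted p = 0.0604, adjusted p = 0.601). The terms in newly formed nuclei rest on 3 animals of each sex and genotype. WT male 1 (14 newly formed nuclei) had the lowest Mobp there, and WT female 3 (13 nuclei) the highest Mog. The part of the mix of newly formed clusters in each animal was not tested.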

How the data were processed

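Nuclei of the cortex of 12 mice (6 WT, 6 Het) were profiled. Per the study's methods, UMIs were counted by the authors with ScaleRna after mapping to mm10. From their values, the deposited matrices were read to hold expected counts, which need not be whole (92.6% of entries were). All deposited barcodes had at least 1500 UMIs, and they were fewer than the nuclei the study states for this age. Nuclei with at most 6000 UMIs and 3000 genes, log genes divided by log UMIs of 0.9 or more and at most 1% mitochondrial counts were kept, and the 5% with the highest Scrublet scores were removed. Nuclei were clustered (scanpy 1.11.5, leidenalg 0.10.2) without the 9 genes and named from markers. The naming rule was revised after a first look at the clusters, before any comparison of genotypes. Counts were summed per animal and class, rounded, and tested with edgeR 4.0.16 (R 4.3.3, quasi-likelihood, TMM, filterByExpr, Benjamini-Hochberg adjustment), with DESeq2 1.42.0 as an alternative. Classes needed 10 nuclei in an animal and 3 animals per genotype. The members and lists were chosen with earlier results of these data known. Named were all 9 genes, Myt1l, the called genes or otherwise the 2 of smallest p of each list, and the genes most like the members; some results under this rule are not reported here. Intervals of shares cover counting error only. Replicate numbers did not pair animals (0 of 6 same-numbered pairs had a correlation over 0.1). Other normalizations, filters, covariates, the replicate block, doublet and UMI limits and leaving out each animal were tried. The scripts were tested on simulated data.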

Additional observations from a re-analysis of the deposited data

Results flagged for a closer look

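Of 100 groups of animals examined for a single animal far from the others (its gap to the next animal, as a share of the range, above the 95% limit of Dixon's test), 7 had one, and chance gives about 1 group in 20. In mature oligodendrocytes Mbp was low in WT male 3 (7113 CPM, next 7635) and Mobp was low in Het male 2 (4114 CPM, next 5302). In OPCs Bcas1 was high in Het male 1 (946.2 CPM, next 619.5). In excitatory neurons Mal was high in WT male 1 (6.39 CPM, next 1.94) and Opalin was low in Het female 3 (0.2351 CPM, next 0.565). In inhibitory neurons Mobp was high in Het male 1 (4.066 CPM, next 1.75) and Mog was high in WT male 1 (3.441 CPM, next 1.81).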

How the results depend on the processing

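No member was called under any alternative, and the smallest adjusted p of a member by edgeR or DESeq2 over them was 0.671 in mature oligodendrocytes, 0.677 in newly formed oligodendrocytes, 0.709 in OPCs, 0.163 in excitatory neurons, 0.569 in inhibitory neurons and 0.709 over all nuclei. The counts of all genes called moved more. In excitatory neurons they were 93 with DESeq2, 210 when low counts were not filtered and 58 when neither the upper limits nor the ratio filter was applied to nuclei (called without upper limits from here on). In inhibitory neurons they were 89, 199 and 1 in that order, and over all nuclei 54, 36 and 4, with 1 when sex was a covariate. In astrocytes 4 genes were called without the filter. With the replicate block of sex and number, 18 genes were called in excitatory and 27 in inhibitory neurons, and the block changed no call of a member; the numbers do not pair the animals. Leaving out 1 animal gave 9 (without WT female 3) to 54 (without WT female 1) genes in excitatory neurons, 24 (without WT male 3) to 88 (without WT female 2) in inhibitory neurons, 0 to 11 (without WT female 1) over all nuclei and 0 to 1 in astrocytes, and 0 members in each class. Small member differences (log2) changed sign. Mbp in mature nuclei was 0.0019 without the filter. In newly formed nuclei Mbp was 0.013 with DESeq2, 0.11 without the filter, 0.0065 with the replicate block, 0.069 without upper limits and 0.0060 without doublet removal, Bcas1 was 0.090 without the filter, 0.056 without doublet removal and 0.068 with whole-number entries, Mog was 0.084 with whole-number entries and Myrf -0.0083 with sex as a covariate. Bcas1 in OPCs was -0.020 without upper limits. Cnp in excitatory neurons was -0.015 without upper limits and -0.038 without doublet removal, and in inhibitory neurons 0.031 without upper limits. With 1 animal left out, mature nuclei gave -0.0012 to 0.14 for Mog, -0.016 to 0.17 for Myrf, -0.0075 to 0.15 for Bcas1 and 0.27 to 0.43 for Mal. Newly formed nuclei gave -0.049 to 0.058 for Mbp, -0.31 to 0.13 for Mobp, -0.30 to 0.14 for Mog, -0.0063 to 0.25 for Mag, -0.11 to 0.33 for Cnp and -0.078 to 0.11 for Myrf. Bcas1 in OPCs ran from -0.067 to 0.22, Cnp in excitatory neurons from -0.022 to 0.12, and over all nuclei Mbp from -0.0030 to 0.39 and Mobp from -0.046 to 0.36. Mal in excitatory neurons ran from -0.80 to -0.18, the latter without WT male 1. The difference in share ran from 0.377 to 1.39 percentage points for mature, 0.0770 to 0.451 for newly formed, 0.253 to 0.584 for OPCs and 0.780 to 2.43 for the lineage. As a share of the lineage, the difference was -2.06 points for mature (exact permutation p = 0.597) and -0.746 for newly formed nuclei (exact permutation p = 0.775). The ratio of newly formed to mature, as a share of thinned nuclei with a count, was 0.874 for Mbp, 0.185 for Mog and 1.61 for Bcas1, and the Bcas1 CPM ratio was 5.03 without upper limits. The cause of these shifts was not tested. Mal and Opalin in newly formed nuclei and all but Bcas1 in OPCs had too few counts to test with edgeR.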
